A study of Mus musculus with 6 samples.

Results

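Small nucleolar RNAs (snoRNAs), their Cajal body relatives and the noncoding host genes that carry them were followed in CD4+ CD25+ T cells with and without Keap1. The members were all rows of the expression table with exactly 1 gene symbol that starts with Snord, Snora, Scarna or Snhg, or that equals Gas5. This gave 77 of 65528 rows and 75 symbols, with 45 rows of the C/D class (Snord), 16 of the H/ACA class (Snora), 6 of the Cajal body class (Scarna) and 10 of host genes (Snhg). Snhg15 and Snhg17 entered under updated names, and Gas5 had no row of its own. A row is 1 transcript cluster, a set of probes that the array design treats as 1 transcript.

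Cells came from the spleens of untreated C57BL/6 male mice by magnetic separation on CD4 and CD25, the surface markers of regulatory T cells. Keap1_KO mice (3 arrays, B, C and D, genotype Keap1 -/-) carry floxed Keap1 and a Vav-driven Cre recombinase, a promoter that is active in blood-forming cells at large, so other blood cells lack the gene too. WT mice (3 arrays, A, D and F) are Keap1 +/+. The sources used here do not say whether the WT mice carried Cre or a floxed allele. The sample labels give the cells as CD4+, whereas the title of the series writes CD4-. The labels put the age at 10 to 12 months in one field and at 6 to 10 weeks in another. The design text calls the triplicates independent without tying each array to a mouse. The p-values therefore cover only the spread among the 6 arrays, which may be technical in part. From 40 ng of total RNA, cDNA was amplified and labelled with biotin for hybridisation.

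SnoRNAs are short nuclear RNAs that base-pair with other RNAs and bring a modifying enzyme to a chosen nucleotide. C/D snoRNAs act with the methyltransferase fibrillarin and H/ACA snoRNAs with the pseudouridine synthase dyskerin, mostly on ribosomal RNA, while Cajal body RNAs guide the same reactions on spliceosomal RNAs. A few, such as U8, U14 and U17, take part in cutting the ribosomal RNA precursor. Most mammalian snoRNAs are cut out of introns of ribosomal protein or translation factor genes, or of noncoding Snhg genes and Gas5, whose spliced RNAs often turn over quickly.

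The values are on the deposited log2 scale, as mean ± SD with n = 3 arrays in each genotype, and differences are Keap1_KO minus WT on that scale. Where single arrays are listed, the order is A, D, F for WT and B, C, D for Keap1_KO. A row was tested when it reached the median of its array (5.16 to 5.43) on at least 3 of the 6 arrays. Of the 77 rows, 69 were tested, namely 43 C/D, 14 H/ACA, 6 Cajal body and 6 host rows. The rows under this filter were Snord64, Snord66, Snora35, Snora78, Snhg7os, Snhg11, Snhg14 and Snhg18. The CD4 T cell markers averaged 13.65 to 14.16 on the WT arrays and 13.99 to 14.95 on the Keap1_KO arrays, far above the array medians, which goes with the labelled cell type. Foxp3 had no row of its own. The 10 neutrophil markers, all with higher means in Keap1_KO, averaged 8.17, 9.42 and 8.61 on the WT arrays and 8.29, 10.46 and 12.57 on the Keap1_KO arrays.

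No member passed the test between genotypes. With limma and Benjamini-Hochberg adjustment, 0 of 69 member rows reached an adjusted p under 0.05, as did 0 of the 17005 rows tested (0%). At an unadjusted limma p under 0.05, 4 members were higher and 1 was lower in Keap1_KO, against backgrounds of 8.35% higher and 1.95% lower (10.3% in either direction). The genotypes did not overlap for 4 higher and 4 lower members, against backgrounds of 9.07% and 4.96% of all rows tested (14% in either direction). In these bulk samples, fewer cells of a type and less RNA per cell cannot be told apart. With array weights, 7 members passed (11.1% of all rows then did, limma adjusted p 0.0408 to 0.049998 for these 7), and without Keap1_KO B, 2 did (3.34% of all rows), namely Scarna10 (1.42, SE 0.25, limma adjusted p = 0.0495) and Snora20 (-1.33, SE 0.24, limma adjusted p = 0.0491).

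The classes had no common direction. Of 43 C/D rows, 18 had a higher and 25 a lower mean in Keap1_KO, with a median difference of -0.10. That median became 0.012 after centring of arrays on their medians and 0.13 after adjustment for the first principal component. With arrays centred on other small RNA rows it was 0.11. That reference held 334 microRNA rows and 74 further rows, mostly of 5S ribosomal and spliceosomal RNAs, so microRNA rows were most of it. Of 14 H/ACA rows, 5 were higher and 9 lower, with a median of -0.13 that was 0.077 with arrays centred on other small RNA rows, 0.17 with the first principal component and 0.023 with array weights. Of 6 Cajal body rows, 5 were higher and 1 lower, with a median of 0.67. Of 6 host rows, 2 were higher and 4 lower, with a median of -0.048 that was 0.038 with quantile normalization repeated, 0.064 with arrays centred on their medians, 0.16 with arrays centred on other small RNA rows and 0.049 with the first principal component. The median over all rows tested was 0.059, and the centrings on array medians and on other small RNA rows moved it by 0.11 and 0.21. Without WT F the H/ACA median was 0.15, without Keap1_KO C the C/D median was 0.13, and that of the hosts was 0.13 or 0.018 when WT A or Keap1_KO D was left out.

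The small RNAs had a wide spread within each genotype. The pooled within-genotype SD had a median of 0.94 for C/D rows, 0.50 for H/ACA rows and 0.92 for Cajal body rows, against 0.28 for host rows and 0.32 for all rows tested. It exceeded 0.5 in 35 of 43 C/D rows (81.4%), in 7 of 14 H/ACA rows and in 5 of 6 Cajal body rows, but in 0 of 6 host rows and 24.3% of all rows tested. The 95% interval of a C/D difference reached, at the median row, 1.502 to either side of the estimate, whereas for a host row it reached 0.55. These spreads are a description of the rows and were not tested against each other.

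**Figure D1:**
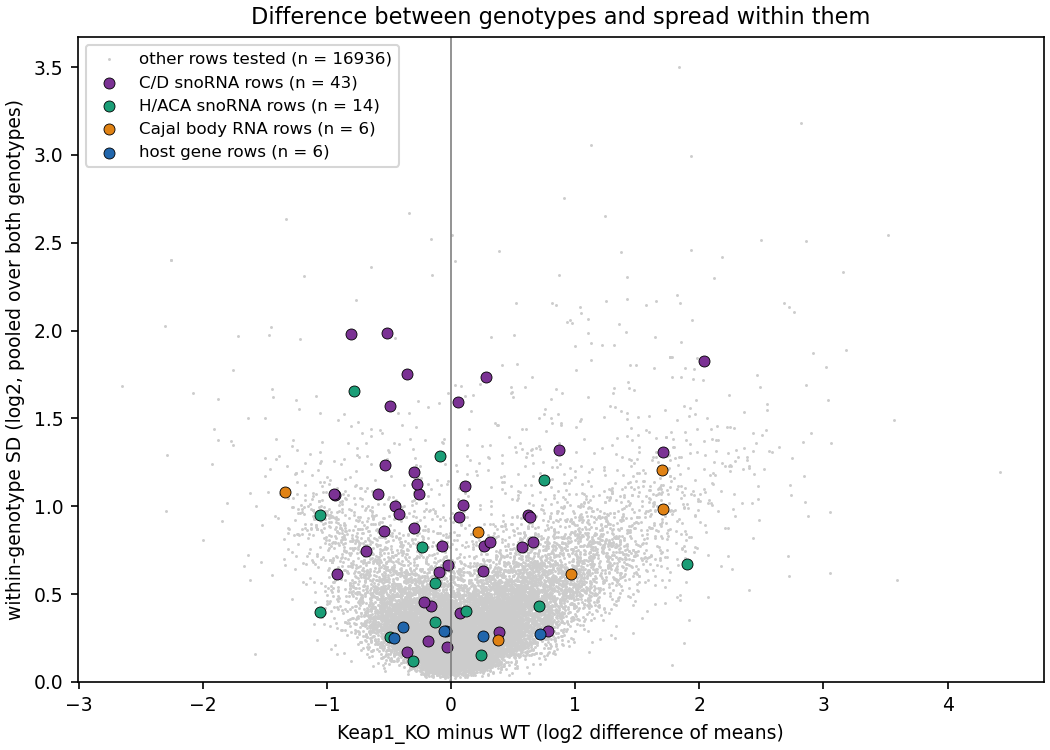
Each point is a tested row, with its difference between genotypes (log2) across and its pooled within-genotype SD (log2) upwards; grey points are the other rows tested and coloured points the member classes. C/D rows (median SD 0.94) sit above most grey points (median over all rows tested 0.32), and host rows (median SD 0.28) sit low among them.

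The most variable C/D row was the first of the Snord118 rows, with a range of 5.16 over the 6 arrays, followed by Snord71 (4.49) and Snord49b (4.20), the latter pair named after their values were seen. Snord49b read 15.35, 15.55 and 12.34 in WT and 14.49, 11.51 and 15.70 in Keap1_KO. One array of each genotype, WT F and Keap1_KO C, was thus far below the others. Snord71 ran differently, with 8.996, 9.41 and 11.93 in WT and 11.89, 7.45 and 8.59 in Keap1_KO, so that WT F and Keap1_KO B were the high arrays. Snord49a, which lies in the same noncoding gene as Snord49b and was also named after its values were seen, read 5.75, 7.53 and 6.34 in WT and 6.79, 4.90 and 7.15 in Keap1_KO, again lowest on Keap1_KO C.

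Arrays of the same genotype lay apart in these values. Keap1_KO C was the lowest of the 6 arrays for 13 of 43 C/D rows (30.2%), against 18.3% of all rows tested. Of all rows tested, 34.3% were lowest on WT F. Keap1_KO C also had the lowest median deviation of C/D rows from the row mean (-0.40). Keap1_KO B, of the same genotype, had the highest (0.33). The WT arrays lay between, at -0.035, -0.030 and 0.028 for A, D and F, and Keap1_KO D was at 0.019. For H/ACA rows the median deviations were 0.022, -0.13 and 0.037 in WT and 0.087, -0.077 and -0.32 in Keap1_KO. For the 6 Cajal body rows they were -0.49, -0.0026 and -0.68 in WT and -0.082, 0.56 and 0.54 in Keap1_KO, so only Keap1_KO C and D stood above WT D.

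**Figure D2:**
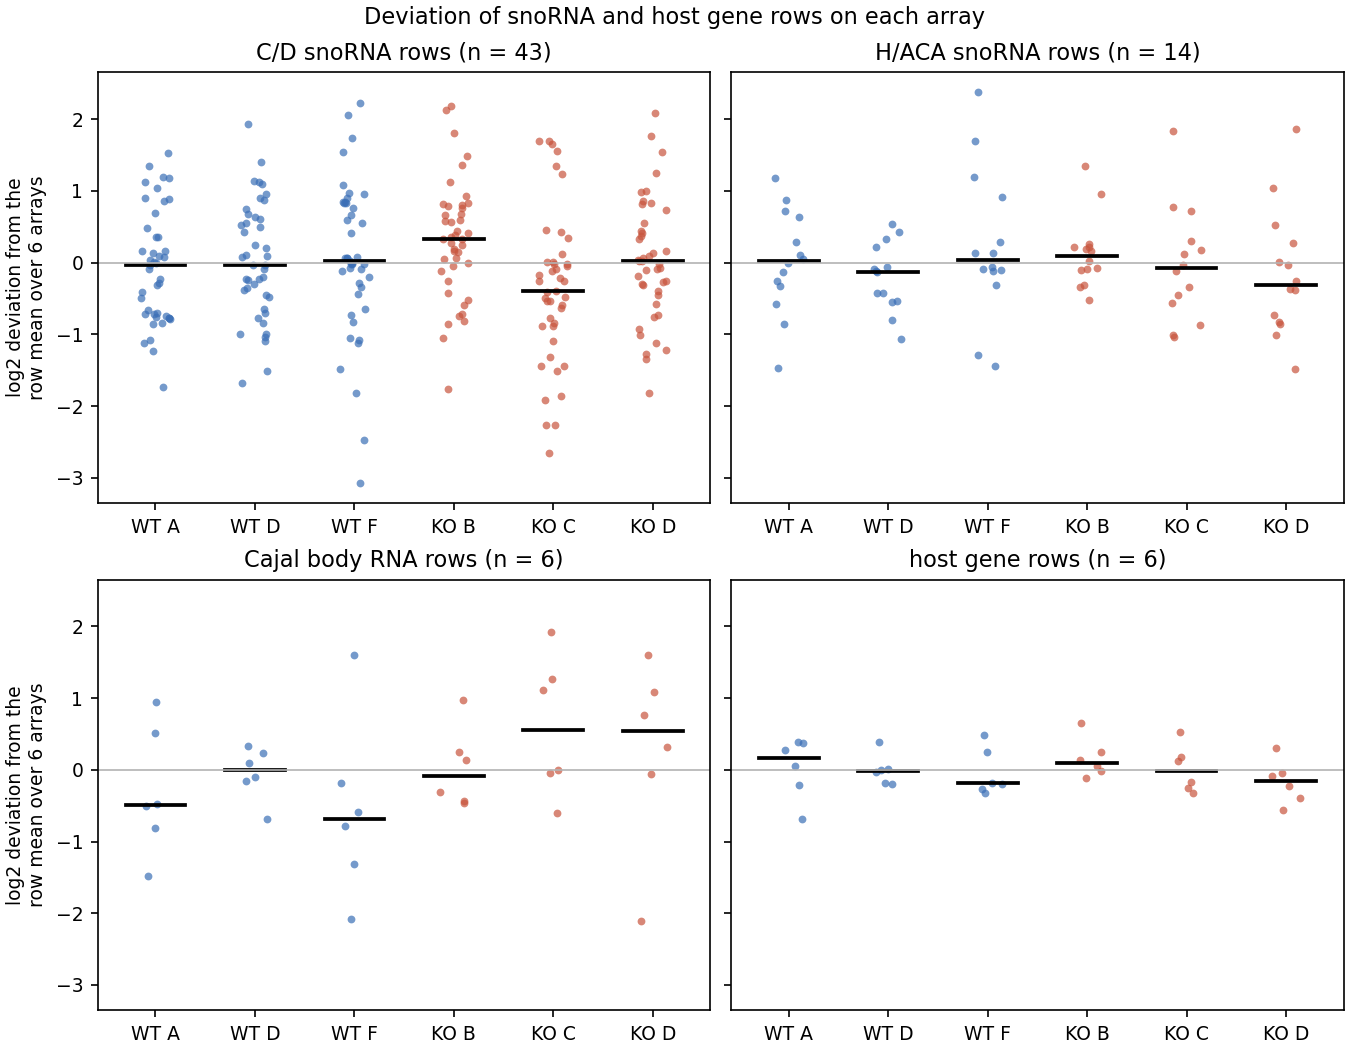
Each point is 1 tested row on 1 array, as its log2 deviation from the mean of that row over the 6 arrays; black bars are medians, blue points WT and red points Keap1_KO. C/D rows scatter on every array with medians from -0.40 (Keap1_KO C) to 0.33 (Keap1_KO B), whereas host rows stay close to 0.

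Across the 63 small RNA rows tested, which share arrays and amplification, Pearson correlations of 0.807 to 0.908 were found for arrays of the same genotype, and of 0.754 to 0.955 for arrays of different genotypes. The highest joined WT D with Keap1_KO D and the lowest WT F with Keap1_KO D. Over all rows tested the same ranges were 0.959 to 0.983 and 0.927 to 0.988.

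Other small RNA genes on the same arrays had medians on opposite sides of 0. MicroRNA rows (334 tested) were highest on WT F in 68.6% of cases and had a median difference of -0.41. The 448 tested rows that RefSeq classes as snoRNA but that carry predicted or other names were also highest on WT F (68.3%) and had a median of -0.21. Rows of spliceosomal RNAs (15 tested) had a median of 0.83 and were lowest on WT F in 9 of 15 cases and highest on Keap1_KO D in 11. Named C/D rows followed neither pattern as a class: WT F was the highest array for 9 of 43 and the lowest for 5. Over all rows tested, WT F was highest for 18.9% and lowest for 34.3%, and Keap1_KO D was highest for 26.1%. Ribosomal protein mRNAs come from genes that hold many snoRNAs in their introns. Their means were higher in Keap1_KO in 41 of 44 rows, with a median of 0.31, against 9580 of all 17005 rows tested. The genotypes separated in 0 of the 44, against 9.07% higher and 4.96% lower of all rows tested. Median deviations were -0.27, 0.20 and -0.39 in WT and -0.22, 0.38 and 0.34 in Keap1_KO, so Keap1_KO B lay below WT D.

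Among the C/D snoRNAs, 2 tested rows separated the genotypes. Snord37, which lies inside the gene of the translation elongation factor Eef2, read 5.23, 5.48 and 5.93 in WT and 6.10, 6.40 and 6.49 in Keap1_KO. Every Keap1_KO array was above every WT array, and WT A was below its array median, so the fold is not exact. The difference was 0.79 (SE 0.23, 1.72-fold), with limma p = 0.0138, adjusted p = 0.477 and an exact two-sided permutation p of 0.1, the smallest that 3 arrays against 3 allow. Its containing gene Eef2 read 16.50, 17.07 and 15.95 in WT and 16.54, 17.53 and 17.55 in Keap1_KO and overlapped. Snord23, inside the ribosome assembly gene Nop53, read 6.82, 6.87 and 7.21 in WT and 6.74, 6.61 and 6.49 in Keap1_KO. The Keap1_KO arrays were lower by a small step (-0.35, SE 0.18, limma adjusted p = 0.489, and -0.15 with arrays centred on other small RNA rows), while Nop53 itself differed by 1.27 (SE 0.52, limma adjusted p = 0.477).

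Snord118 (U8), required for processing of large-subunit ribosomal RNA, had 2 rows. The first read 11.81, 13.99 and 9.81 in WT and 12.18, 14.58 and 14.98 in Keap1_KO. Keap1_KO C and D were the highest arrays, Keap1_KO B lay among the WT arrays and WT F was lowest. The difference of 2.04 had an SE of 1.19 and a 95% interval from -0.82 to 4.90, and it was -0.43 after adjustment for the first principal component. It was 1.01 without WT F and 3.10 without WT D. The second row read 6.11, 6.57 and 7.80 in WT and 7.28, 6.96 and 7.01 in Keap1_KO, a difference of 0.26 (SE 0.43). The rows thus differed in which arrays were high. RefSeq lists 1 gene of this name, so what the second row measures is uncertain.

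Other C/D snoRNAs with roles in precursor cleavage or in modification of small-subunit RNA overlapped between genotypes. Snord13 (U13), which guides acetylation of that RNA, read 15.97, 16.34 and 14.35 in WT and 16.29, 15.84 and 16.26 in Keap1_KO. Its difference was 0.58 (SE 0.51), and -0.025 without WT F, the lowest array. Snord14a, a copy of U14 in the gene Rps13, read 10.26, 8.38 and 9.81 in WT and 10.15, 7.36 and 9.35 in Keap1_KO, with a difference of -0.53 (SE 0.81). The difference was 0.27 without Keap1_KO C. Of the 15 RNAs listed by known role, which include H/ACA and Cajal body RNAs, 6 had a row of their own.

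Snord104, chosen after its values were seen, followed the array order of the first Snord118 row, except that Keap1_KO C and D changed places. It read 12.24, 13.68 and 10.52 in WT and 12.75, 14.56 and 14.25 in Keap1_KO, a difference of 1.71 (SE 0.86, limma adjusted p = 0.488) with Keap1_KO B below WT D. Snord4a, inside the ribosomal protein gene Rpl23a, read 11.16, 9.78 and 9.88 in WT and 9.81, 9.18 and 9.08 in Keap1_KO. It differed by -0.92 (SE 0.42, limma adjusted p = 0.479), and Keap1_KO B (9.81) lay above WT D (9.78). Snord4a was also named after its values were seen. The remaining tested C/D rows lay between -0.94 for Snord92 and 0.87 for Snord16a. Snord58b had 2 rows that differed by 0.64 and 0.62 and hardly differed from each other on any array, so they are not independent measurements.

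Among the H/ACA snoRNAs, Snora73b stood highest. It is a copy of U17, which takes part in cutting the ribosomal RNA precursor, and lies inside the noncoding gene Snhg3. It read 6.98, 7.30 and 6.40 in WT and 8.06, 8.61 and 9.70 in Keap1_KO, and no array of one genotype reached the other. The difference was 1.90 (SE 0.46, 95% interval 0.80 to 2.997, 3.73-fold), with limma p = 0.00508, adjusted p = 0.477 and an exact two-sided permutation p of 0.1. It ranged from 1.45 to 2.26 as single arrays were left out and was 1.07 after adjustment for the first principal component. The row shared by Snhg3 and the sister copy Snora73a read 8.68, 8.98 and 8.44 in WT and 8.81, 9.36 and 9.29 in Keap1_KO, with Keap1_KO B below WT D. Keap1_KO D, highest for Snora73b, also had the highest means of the neutrophil (12.57), NK, B, plasma, Treg, CD8 T cell and macrophage markers. The CD4 T cell and erythroid markers were highest on other arrays. Keap1_KO B, above all WT arrays for Snora73b, had a neutrophil mean of 8.29, above WT A (8.17) and below WT D (9.42) and WT F (8.61). Its B cell (8.50) and NK (8.37) means were below WT D (9.10 and 9.63) and above WT A and WT F. The part of these cells in the Snora73b difference was not tested.

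Snora16a, inside the noncoding gene Snhg12, read 5.60, 5.51 and 5.62 in WT and 5.83, 6.05 and 6.97 in Keap1_KO. The groups did not overlap, and the difference of 0.71 (SE 0.31, limma adjusted p = 0.477) was 0.36 without Keap1_KO D. The row shared by Snhg12 and its other snoRNAs read 8.86, 9.17 and 8.36 in WT and 9.15, 9.35 and 9.15 in Keap1_KO and overlapped. In the other direction, Snora20, inside the chaperonin gene Tcp1, read 8.80, 8.37 and 8.22 in WT and 7.95, 7.06 and 7.21 in Keap1_KO. All Keap1_KO arrays were lower, by 1.06 (SE 0.29, 2.08-fold, limma adjusted p = 0.477, exact two-sided permutation p = 0.1). The difference was -0.70 after adjustment for the first principal component. Tcp1 itself differed by 0.25 (SE 0.29). Snora2b, inside the chromatin regulator gene Kansl2, read 7.12, 7.23 and 7.15 in WT and 6.92, 6.68 and 6.98 in Keap1_KO, without overlap (-0.31, SE 0.16, limma adjusted p = 0.494). Centring on other small RNA rows left -0.10. The other H/ACA rows tested ranged from -1.05 (Snora31, inside Tpt1) to 0.75 (Snora7a, inside Rpl32).

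**Figure D3:**
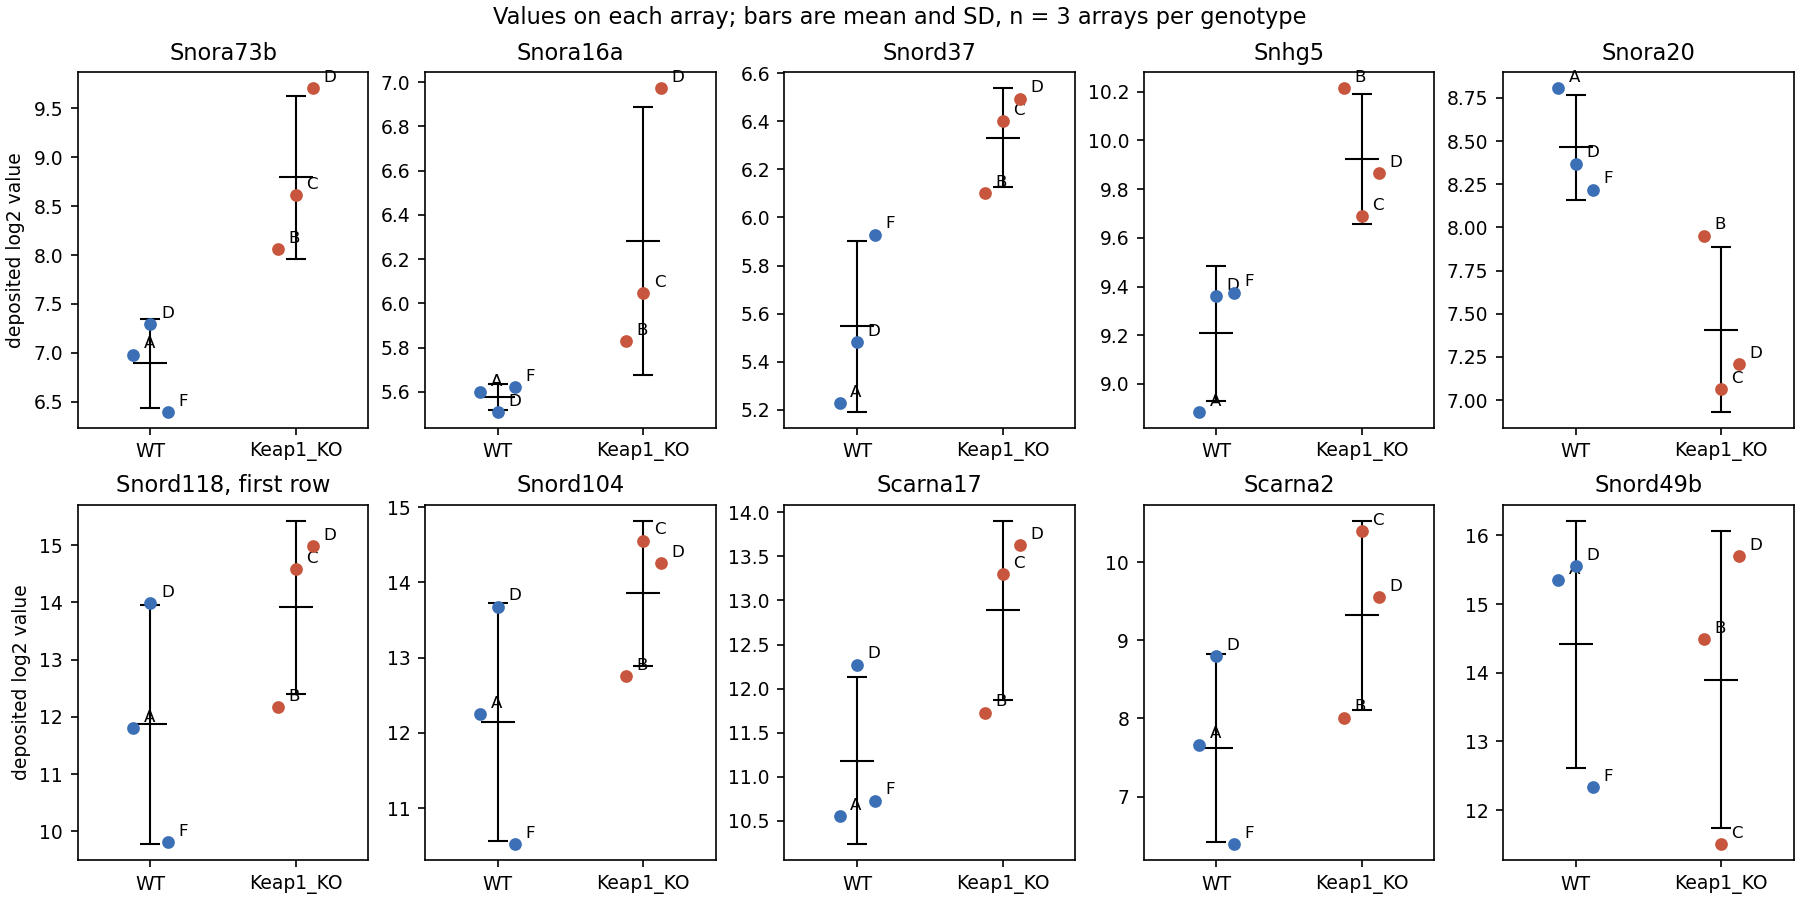
Deposited log2 values of 10 members on each array, WT in blue and Keap1_KO in red, with the replicate letter beside each point and mean and SD (n = 3 arrays) in black. The genotypes separate for Snora73b, Snora16a, Snord37, Snhg5 and Snora20. In the lower row they overlap, with WT F lowest for Snord118, Snord104 and Scarna2.

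Several Cajal body RNAs differed widely in their means, but none separated the genotypes. Scarna17 read 10.55, 12.27 and 10.73 in WT and 11.73, 13.30 and 13.63 in Keap1_KO, a difference of 1.70 (SE 0.65, limma adjusted p = 0.477, exact two-sided permutation p = 0.2). Scarna2, which guides modification of a spliceosomal RNA and lay inside no other RefSeq gene, read 7.67, 8.80 and 6.39 in WT and 8.01, 10.40 and 9.56 in Keap1_KO. Its difference was 1.70 (SE 0.79), or 1.09 without WT F and 0.10 after adjustment for the first principal component. Scarna10 read 5.36, 5.71 and 5.08 in WT and 5.44, 6.98 and 6.63 in Keap1_KO, a difference of 0.96 (SE 0.42). In each of these 3 RNAs Keap1_KO C and D were above all WT arrays, while Keap1_KO B was below WT D. Those arrays, Keap1_KO C and D, also had the highest neutrophil marker means (10.46 and 12.57). The CD4 T cell, Treg, CD8 T cell and plasma cell markers were highest on both too, and the B, NK, macrophage and erythroid markers were not. The part of these cells in the differences was not tested.

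Scarna9 was steady, at 13.86, 14.44 and 14.15 in WT and 14.58, 14.34 and 14.66 in Keap1_KO (difference 0.38, SE 0.21). Scarna6 differed by 0.21 (SE 0.57). Scarna8 was the row with a lower mean, reading 6.66, 6.05 and 7.76 in WT and 6.29, 6.11 and 4.04 in Keap1_KO. Its difference was -1.34 (SE 0.71), and Keap1_KO D was the lowest array. Scarna6, Scarna8, Scarna10 and Scarna17 were named after their values were seen. The class median was 0.22 once the first principal component was a covariate.

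The host genes were measured with less spread. Their RNAs carry snoRNAs in introns, and many begin with a stretch of pyrimidines, as ribosomal protein mRNAs do. Promoter sequences from RefSeq (GRCm38.p6) were found for 9 of the 10 host genes, Snhg6 being the exception, and for 0 of the snoRNA symbols. The start sites of the tested hosts are shown because Snhg5 was the only one of them with all Keap1_KO arrays above all WT arrays. Each line runs from 40 bases before to 30 bases from the annotated start onward. The positions are chr9:88522868-88522937 for Snhg5, chr17:24719936-24720005 for Snhg9, chr12:105032250-105032319 for Snhg10, chr11:6528731-6528800 for Snhg15 and chr2:158361493-158361562 for the first start of Snhg17, all on the minus strand. Capitals mark a run of at least 5 bases of C or T, read from the first C that lies from 5 bases before to 20 after the start, also where C or T precedes it, and any match to TGACNNNGC, the core of the antioxidant response element bound by the Keap1-controlled factor NRF2, on either strand.
Snhg5: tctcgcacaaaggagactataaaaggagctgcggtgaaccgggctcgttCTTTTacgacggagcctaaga
Snhg9: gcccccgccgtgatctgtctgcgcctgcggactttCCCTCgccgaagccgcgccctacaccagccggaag
Snhg10: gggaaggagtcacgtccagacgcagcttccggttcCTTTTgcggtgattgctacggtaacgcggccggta
Snhg15: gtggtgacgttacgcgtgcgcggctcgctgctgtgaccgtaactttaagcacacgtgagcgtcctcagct
Snhg17: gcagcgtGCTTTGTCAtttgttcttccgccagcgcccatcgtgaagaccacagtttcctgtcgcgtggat

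Snhg5, Snhg9 and Snhg10 had a pyrimidine run in the searched stretch around these annotated starts, and Snhg15 and Snhg17 had none. The run lay wholly before the annotated start in Snhg9 and Snhg10 and wholly after it in Snhg5. None of these runs included the start base itself. The run was present in 33.7% of all 32851 promoter windows and in 60.5% of the 76 windows of ribosomal protein genes, so it is common. TGACNNNGC was found in the 300-base window of Snhg17, 33 bases before the start and on the minus strand of the window, and in 12.4% of all windows. It was not found in the windows of Snhg5, Snhg9, Snhg10 or Snhg15. These matches describe letters in the windows only.

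Snhg5 read 8.89, 9.36 and 9.37 in WT and 10.21, 9.69 and 9.86 in Keap1_KO. All Keap1_KO arrays were above all WT arrays, with Keap1_KO B, the array nearest to WT for Snora73b, here the highest. The difference was 0.72 (SE 0.23, 95% interval 0.17 to 1.26, 1.64-fold), with limma p = 0.0175, adjusted p = 0.477 and an exact two-sided permutation p of 0.1. It stayed between 0.55 and 0.83 as single arrays were left out.

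Snhg10, the host of Scarna13, read 6.86, 7.19 and 7.06 in WT and 6.86, 6.64 and 6.24 in Keap1_KO, differing by -0.46 (SE 0.21, limma adjusted p = 0.480), with Keap1_KO B just below WT A. The difference was -0.25 with arrays centred on other small RNA rows and -0.29 without Keap1_KO D. Snhg17 read 6.83, 6.38 and 7.04 in WT and 6.69, 6.23 and 6.17 in Keap1_KO and overlapped (-0.39, SE 0.25). Snhg15 averaged 8.32 ± 0.12 in WT and 8.58 ± 0.35 in Keap1_KO. Snhg6 averaged 8.61 ± 0.36 and 8.57 ± 0.20, and Snhg9 6.69 ± 0.32 and 6.63 ± 0.25. For Snhg6 the 95% interval of the difference ran from -0.60 to 0.52 and for Snhg9 from -0.62 to 0.51, so changes of that size were not detectable here.

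The other 4 host rows were below the filter. Snhg11 read 5.01, 4.89 and 5.29 in WT and 4.72, 4.81 and 4.53 in Keap1_KO, without overlap but below the array median. Snhg14 averaged 4.65 ± 0.21 and 4.56 ± 0.14, Snhg18 5.08 ± 0.07 and 5.29 ± 0.61, and Snhg7os, which by its name is transcribed opposite Snhg7 and is no host itself, 4.70 ± 0.06 and 4.65 ± 0.05. At such levels a difference says little about the RNA.

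A host gene named Snhg and its snoRNA had separate rows in 4 pairs, and among these only Snhg6 and Snord87 were both tested. Snord87, in Snhg6, read 11.15, 8.92 and 9.60 in WT and 9.81, 9.21 and 9.05 in Keap1_KO, with its within-genotype SD of 0.86 against 0.29 for Snhg6. Both RNAs were highest on WT A. The difference of Snord87 was -0.54 (SE 0.57) and became 0.094 without WT A. Snord123, in Snhg18, averaged 6.70 ± 0.13 in WT and 6.67 ± 0.25 in Keap1_KO. Snora78, in Snhg9, averaged 5.197 ± 0.17 in WT and 5.55 ± 0.36 in Keap1_KO, and Snord64, in Snhg14, read 3.96, 3.97 and 3.70 in WT and 4.29, 4.36 and 4.24 in Keap1_KO. Both of these were below the filter, so the lack of overlap for Snord64 carries no fold.

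Most snoRNA rows lay inside other genes. Places were read from the RefSeq gene of each row's symbol (GRCm38.p6, strand not used), not from the row's own position. By these, 56 rows lay inside exactly 1 other gene, 6 inside 2 genes, and 5 (both Snord118 rows, Snord13, Snord89 and Scarna2) inside none. A ribosomal protein gene was named for 20 rows, among them Snora78, inside both Rps2 and Snhg9. The place of the second Snord118 row itself, and of each Snord58b row, was thus not determined. For 26 tested snoRNAs the containing gene (24 genes) was tested as well. The median difference was -0.28 for these snoRNAs and 0.11 for their containing genes, of which 14 were higher and 10 lower in Keap1_KO. The within-genotype SD was larger for the snoRNA than for its containing gene in 21 of 26 pairs, with medians of 0.87 and 0.30.

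Snoras and Snords of 1 gene could differ on the same arrays. Ncl, the gene of nucleolin, read 15.75, 15.69 and 15.73 in WT and 15.72, 15.50 and 15.49 in Keap1_KO. Of its snoRNAs, Snord82 read 14.23, 14.67 and 13.86 in WT and 13.62, 13.89 and 14.59 in Keap1_KO, whereas Snora75 read 8.27, 9.65 and 11.44 in WT and 9.90, 10.46 and 8.73 in Keap1_KO. Snora75 thus spanned a far wider range than its gene and was highest on WT F, where Snord82 was the lowest of the WT arrays. Nop58, a core protein gene of C/D particles, differed by -0.0024 (SE 0.22), while its intronic Snord11 and Snord70 differed by -0.45 (SE 0.66) and -0.59 (SE 0.71). Ncapd2, a condensin gene that contains Scarna10, read 8.01, 7.96 and 7.67 in WT and 8.63, 8.41 and 8.53 in Keap1_KO (0.64, SE 0.17, limma adjusted p = 0.477).

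**Figure D4:**
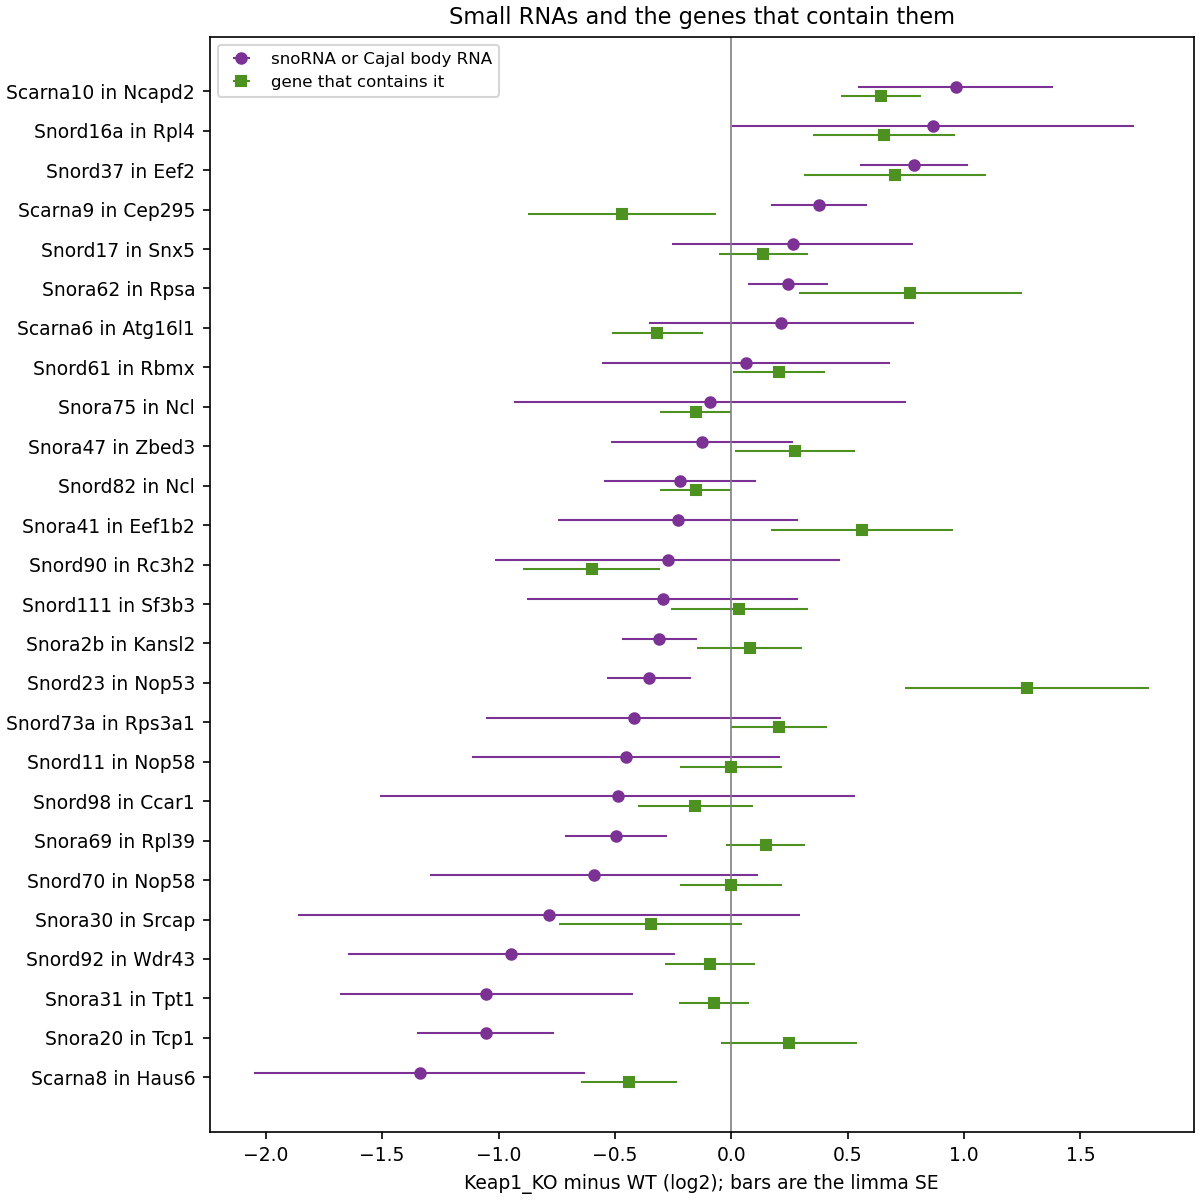
For 26 small RNAs, the difference between genotypes (Keap1_KO minus WT, log2) of the RNA (purple circles) and of the gene that contains it (green squares), with the limma SE as bars. The bars of the small RNAs are mostly the longer ones, and pairs such as Snora20 with Tcp1 (-1.06 and 0.25) and Snord23 with Nop53 (-0.35 and 1.27) lie on opposite sides of 0.

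The proteins that build snoRNA particles gave 22 tested genes out of 25 listed, 17 with a higher and 5 with a lower mean in Keap1_KO and a median of 0.27, against 0.059 for all rows tested. With limma, 0 of them passed the adjusted threshold, and 2 were higher and 0 lower at an unadjusted p under 0.05, against 8.35% and 1.95% of all rows tested. The widest differences were 1.43 (SE 0.74) for Nhp2, a core protein of H/ACA particles, 1.13 (SE 0.55) for Ruvbl1, an ATPase of particle assembly, and 0.86 (SE 0.43) for the assembly factor Znhit3, all overlapping between genotypes. Genes at an unadjusted p under 0.05 were Fbl (fibrillarin), with 14.03 ± 0.30 in WT and 14.87 ± 0.54 in Keap1_KO, and Wrap53, which brings Cajal body RNAs to their compartment, with 6.00 ± 0.05 and 6.47 ± 0.03, both named after their values were seen. Averaged over the list, deviations from the gene means came to -0.018, 0.050 and -0.55 in WT and -0.16, 0.33 and 0.35 in Keap1_KO. The CD4 T cell markers were likewise highest on Keap1_KO C and D, with -0.50, -0.080 and -0.58 in WT and -0.25, 0.71 and 0.70 in Keap1_KO. Their part in the list's difference was not tested.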

How the data were processed

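Expression was measured on 6 arrays, 3 per genotype. The authors deposited log2 values, and the tools named in the submitters' processing notes are RMA, Transcriptome Analysis Console and Affymetrix Expression Console; RMA corrects background, normalizes between arrays and summarises probes. The sources used here give no genome build for the array. The design text names a Mouse Gene array, while the row identifiers match the annotation of another Affymetrix mouse design. Values over 16 occur in 1268 rows, which a 16-bit scanner cannot give, so fold changes are on the deposited scale. Of 65528 rows, 30354 carry 1 symbol, updated by Entrez identifier in RefSeq.

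The 17005 rows with 1 symbol that passed the filter were fitted with limma 3.58.1 (lmFit, eBayes) under R 4.3.3 as two-sided tests, and p-values were adjusted after Benjamini and Hochberg; rows under the filter have values from the fit without it. The alternatives changed the scaling, the filter, the treatment of shared and repeated symbols, array weights, a covariate and the variance prior, or left out 1 array. The fit was tested on simulated data. Array number limits precision. Members and lists were chosen with earlier results of these data known. Named were all hosts, up to 6 tested C/D and H/ACA rows in each direction (3 for Cajal body rows) without overlap, the 3 largest differences in the particle proteins, RNAs listed by role or as introns of noncoding hosts, and others marked where they stand. The marker lists were also those of Treg, B, plasma, NK, erythroid and CD8 T cells and of macrophages.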

Additional observations from a re-analysis of the deposited data

How the results depend on the processing

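Of 16 alternatives, array weights (7 members past the adjusted threshold: Snora73b, Scarna10, Snhg5, Snord37, Snord4a, Snora20 and Scarna17) and leaving out Keap1_KO B (range 0 to 2 over left-out arrays) changed the count of 0. Class medians moved beyond the spread between arrays for H/ACA rows (0.077 with arrays centred on other small RNA rows, 0.17 with the first principal component, -0.25 to 0.15 over left-out arrays), Cajal body rows (1.04 with the filter on all 6 arrays, 0.22 with the first principal component) and hosts (0.16 with arrays centred on other small RNA rows, -0.31 with array weights, -0.21 to 0.13 over left-out arrays). Of 26 named rows, 14 kept their direction throughout; none of the others passed the threshold anywhere. Directions turned with repeated quantile normalization for Snord123 (0.066), Snhg6 (0.036), Snhg7os (0.030) and Snhg9 (0.039), with centred arrays for Snord123 (0.079), Snhg14 (0.018), Snhg6 (0.072), Snhg7os (0.056) and Snhg9 (0.057), and with centring on other small RNA rows for Snord123 (0.17), Snhg14 (0.11), Snhg6 (0.17), Snhg7os (0.15) and Snhg9 (0.15). With the first principal component they turned for the first Snord118 row (-0.43), Snord123 (0.19), Snord14a (0.69), Snord87 (0.033), Snhg17 (0.043), Snhg18 (-0.18) and Snhg9 (0.083). Over left-out arrays the range crossed 0 for the second Snord118 row (-0.10 to 0.75), Snord123 (-0.16 to 0.084), Snord13 (-0.025 to 0.97), Snord14a (-1.13 to 0.27), Snord87 (-1.02 to 0.094), Snhg18 (-0.086 to 0.52), Snhg6 (-0.21 to 0.15) and Snhg9 (-0.20 to 0.12). The causes were not tested. No paired analysis was possible because the genotypes share only the letter D. Dim rows near the array median limit the folds of Snord37 and Snora16a.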

Other observations

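Members also appear on 45 rows that name a snoRNA or host beside other genes and were not attributed. Of these, 26 had a higher and 19 a lower mean in Keap1_KO, with a median of 0.081 and a within-genotype SD of 0.29 at the median, closer to that of host rows (0.28) than of C/D rows (0.94). The rows naming Gm26504, Ipw and Snord116l1 or Snord116l2 had identical values on every array. Each is counted among the lower rows, so these are not independent measurements. The genotypes did not overlap for 4 higher and 2 lower rows, against 9.07% and 4.96% of all rows tested. The row naming Gas5, Snord47 and Mir5117 read 11.40, 11.54 and 11.60 in WT and 11.46, 11.33 and 11.11 in Keap1_KO, and overlapped. The row naming Snhg1 and Snord22 read 10.67, 10.55 and 10.63 in WT and 10.996, 10.82 and 10.75 in Keap1_KO, so each Keap1_KO array was higher by a small step (0.24). The other higher rows name Rabggtb and Snord45c (0.78), Tbrg4 and Snora5c (0.51) and Nop56 and Snord57 (0.45). The row naming Snora36b and Mir664 read 6.86, 7.196 and 6.79 in WT and 5.41, 6.19 and 5.42 in Keap1_KO, all Keap1_KO arrays being lower (-1.27). The row naming Scarna3b and Mir1843a read 12.54, 12.49 and 13.53 in WT and 12.46, 10.57 and 11.13 in Keap1_KO (-1.47), also without overlap. These rows were chosen after their values were seen.

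Other cell markers were read on the same arrays. The NK cell list averaged 8.28, 9.63 and 7.07 in WT and 8.37, 8.24 and 10.12 in Keap1_KO, and the B cell list 7.599, 9.10 and 6.55 and 8.50, 7.71 and 9.56. Plasma cell markers averaged 7.53 to 8.22 in WT and 7.49 to 9.01 in Keap1_KO, macrophage and monocyte markers 7.63 to 9.33 and 8.18 to 10.08, CD8 T cell markers 6.34 to 7.79 and 6.67 to 8.38, erythroid markers 5.70 to 6.40 and 5.78 to 6.16, and Treg markers 12.51 to 12.99 and 12.97 to 13.85.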
